A study of Mus musculus with 2 samples.

Results

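Semaphorins are guidance ligands, secreted or anchored in the membrane, that are read by plexin receptors, and the secreted class 3 semaphorins first bind a neuropilin co-receptor. In bone they pass between osteoclasts, which resorb bone, and osteoblasts, which build it. Sema4D from osteoclasts holds back osteoblasts, while Sema3A holds back osteoclast formation through neuropilin-1 and plexin-A1, which also signals from Sema6D through TREM2 and DAP12. The genes described here are 8 of this family, namely the ligand genes Sema3a, Sema4a and Sema4d, the receptor genes Plxna1, Plxnb2 and Plxnd1, and the co-receptor genes Nrp1 and Nrp2. They were picked by name from the 16614 genes listed, and the set was drawn up because Sema3a was higher in the knockout library from a low level, so its difference is a description and supports nothing.

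The study compared bone marrow macrophages of Foxo3 knockout (Foxo3 KO) mice with those of wild-type (WT) mice, both of strain C57BL/6, to ask how the forkhead transcription factor FoxO3 bears on osteoclast formation. Femur and tibia marrow was cultured for 3 days with M-CSF, which yields macrophages, and then for 2 days with RANKL, the cytokine that drives them towards osteoclasts. Each genotype has 1 library of poly-A RNA, and the labels give no age, number of animals, knockout allele or culture without RANKL. Values are FPKM, the fragments assigned to a gene divided by its transcript length and by the size of the library. With 1 library per group no value has a replicate error and no test was possible, so each difference is one between these 2 libraries.

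The difference of a gene is given as the plain ratio of Foxo3 KO to WT FPKM, or as a log2 ratio, log2(Foxo3 KO + 1) minus log2(WT + 1). The added 1 FPKM shrinks the log2 ratio of genes with low values. Genes with 1 FPKM or more in either library are called measured, and a difference of 2-fold or more on the log2 scale stood in for a test. Foxo3 itself stood at 0.548 FPKM in the Foxo3 KO and 10.3 FPKM in the WT library, which fits the labels. The cultures held abundant osteoclast transcripts, among them Acp5, the acid phosphatase used to stain osteoclasts, at 8636 FPKM in the Foxo3 KO and 7737 FPKM in the WT library. All 9 osteoclast and all 8 macrophage markers looked at were measured, so the RNA carried the markers of the labelled cell and of its RANKL-driven state.

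Of the members, 1 of 8 was at least 2-fold higher in the Foxo3 KO library, against 0.12% of the 10003 measured genes, and 0 of 8 were at least 2-fold lower, against 0.2%. The 1 gene was Sema3a, for which the set was chosen, so nothing is read from that count. At 1.5-fold the counts were again 1 higher and 0 lower, against 0.41% and 0.94% of all measured genes. All 8 members passed 1 FPKM in at least 1 library, Sema3a through the Foxo3 KO library alone. In direction, 6 of 8 had a log2 ratio above 0, against 57.6% of all measured genes. Sema3a is among the 6, and its direction was fixed by the choice of the set, so nothing is read from this count. Without Sema3a, 5 of 7 were above 0. The median log2 ratio of the members was 0.13, or 0.09 without Sema3a, beside 0.03 for all measured genes. The range ran from -0.40 for Nrp1 to 1.01 for Sema3a.

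**Figure D1:**
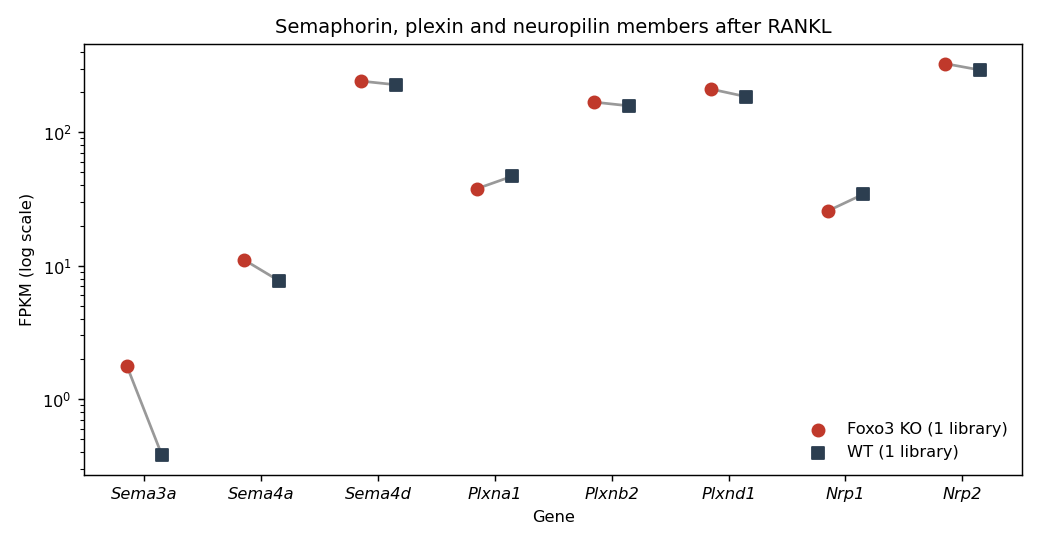
FPKM of the 8 members on a log axis in the Foxo3 KO library (circles) and the WT library (squares), 1 library each, so there are no error bars. Sema3a lies lowest in both and has the widest gap, 1.77 against 0.378 FPKM, and Nrp2 lies highest.

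The order of the 8 levels was the same in both libraries. Nrp2 was the highest, at 328.0 FPKM in the Foxo3 KO and 293.6 FPKM in the WT library, followed by Sema4d, Plxnd1 and Plxnb2, then Plxna1, Nrp1, Sema4a and Sema3a. Among the upper 4 genes, neighbours in this order lay 1.15-fold to 1.35-fold apart in the Foxo3 KO library and 1.17-fold to 1.29-fold apart in the WT library. Without replicates such narrow steps cannot be set against an error. The step below Plxnb2 was 4.45-fold in the Foxo3 KO and 3.37-fold in the WT library, the step from Nrp1 to Sema4a was 2.32-fold in the Foxo3 KO and 4.44-fold in the WT library, and the step from Sema4a to Sema3a was 6.28-fold in the Foxo3 KO and 20.4-fold in the WT library.

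Among the ligands, Sema3a encodes the secreted semaphorin that protects bone in mice by restraining osteoclasts and favouring osteoblasts. Its gene spans 13125414 to 13602565 on the plus strand of chromosome 5 (mm10). Sema3a stood at 1.77 FPKM in the Foxo3 KO library and 0.378 FPKM in the WT library, a plain ratio of 4.67 and a log2 ratio of 1.01. By the plain ratio it was the third highest of the measured genes above 0 in both libraries, and by the log2 ratio it was 12th from the top of all 10003. The WT level was so low that 10723 genes lay above it in that library, while 9343 lay above it in the Foxo3 KO library.

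The 2-fold call of Sema3a hung on the scale. The log2 ratio was 1.96 with a pseudocount of 0.1 FPKM and 0.33 with a pseudocount of 5 FPKM. It lay just short of 2-fold, at 0.99 and 0.98, once the libraries were aligned by a trimmed mean or on the median gene. The plain ratio of 4.67 needs no pseudocount.

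**Figure D2:**
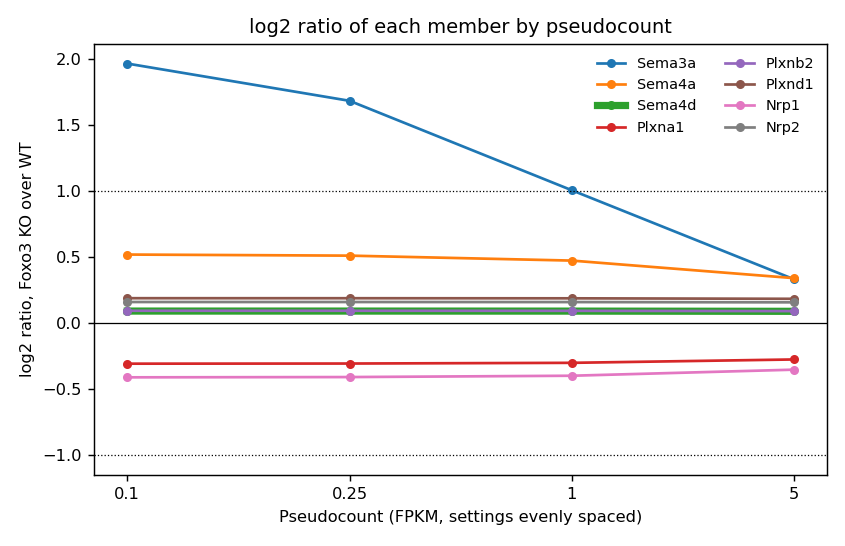
The log2 ratio of Foxo3 KO over WT for each member with pseudocounts of 0.1, 0.25, 1 and 5 FPKM, and dotted lines at 2-fold. Sema3a runs from 1.96 to 0.33, while the members of higher FPKM stay nearly level, and the lines of Sema4d and Plxnb2 coincide.

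Read totals are not in the sources used here, but FPKM values of genes with a few reads step by the worth of 1 fragment. From genes with a single annotated transcript and less than 0.2 FPKM, that step put the depth near 34300000 fragments for the Foxo3 KO and 24900000 for the WT library. At those depths the Sema3a values would correspond to some 359 fragments in the Foxo3 KO and 56 in the WT library if all came from its longest coding transcript of 5930 bases. For a coding transcript of 2285 bases they would correspond to some 139 in the Foxo3 KO and 22 in the WT library. These are rough figures with no interval, and they place Sema3a above single reads in both libraries.

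The 5 named genes nearest to Sema3a in level over the 2 libraries, by distance in log2(FPKM + 1), were Slpi, Hist1h1b, Rnf122, Fam107a and Stard6. The closest was Slpi, a secreted inhibitor of leukocyte proteases, at 1.55 FPKM in the Foxo3 KO and 0.544 FPKM in the WT library. Over 2 libraries such likeness means only that both values were alike.

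Sema3a is also made by osteoblasts, stromal cells and endothelium, whose markers were therefore set beside it. In bulk RNA, more cells of a type and more RNA per cell cannot be told apart. The 10 osteoblast and stromal markers summed to 9.03 FPKM in the Foxo3 KO library and 9.01 FPKM in the WT library, and 3 of 10 were measured. Col1a1, a collagen gene, stood at 3.24 FPKM in the Foxo3 KO and 3.35 FPKM in the WT library, Bglap (osteocalcin) at 0.162 FPKM in the Foxo3 KO library and at 0 in the WT library, and Runx2, an osteoblast transcription factor gene, at 1.76 FPKM in the Foxo3 KO and 1.43 FPKM in the WT library. Ibsp was listed at 0 in the WT library as well. Endothelial markers summed to 2.51 FPKM in the Foxo3 KO library and 3.26 FPKM in the WT library over 5 genes. Of these Emcn was listed at 0 in both, and Vwf made up most of the sum. The collagen genes Col1a1 and Col1a2 carried most of the stromal sum, and of all 10 stromal genes, most of them under 1 FPKM, 6 were higher and 4 lower in the Foxo3 KO library. Of the 5 endothelial genes 2 were higher and 2 lower. The part of these cells in the Sema3a value was not tested.

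Sema4a, a membrane semaphorin of myeloid and dendritic cells that acts on T cells (chromosome 3, 88435959 to 88461182), stood at 11.1 FPKM in the Foxo3 KO and 7.72 FPKM in the WT library. The Foxo3 KO value was 1.44 times the WT value, with a log2 ratio of 0.47 that ranked 83rd from the top. A microRNA gene, Mir7011, overlaps its exons. The 6 dendritic cell markers summed to 5.30 FPKM in the Foxo3 KO and 4.76 FPKM in the WT library. Of these 2 were measured and both were higher in the Foxo3 KO library, as were 57.6% of all measured genes. Itgax stood at 3.23 against 3.10 FPKM in WT and Zbtb46 at 1.48 against 1.14 FPKM in WT. The part of dendritic cells in the Sema4a value was not tested. Of 7 T, B and NK cell markers 0 were measured. Of 6 neutrophil markers 4 were measured, 1 higher and 3 lower in the Foxo3 KO library, against 57.6% and 42.4% of all measured genes. S100a8 stood at 67.0 FPKM in the Foxo3 KO and 70.2 FPKM in the WT library. S100a9 stood at 55.4 FPKM in the Foxo3 KO and 53.6 FPKM in the WT library. The part of such cells in the values of the members was not tested. Sema4d, the membrane semaphorin through which osteoclasts restrain osteoblasts (chromosome 13, 51685529 to 51793747), was the bulk of the semaphorin transcripts, at 242.5 FPKM in the Foxo3 KO and 227.6 FPKM in the WT library. It made up 85.0% of the summed FPKM of all 20 semaphorin genes in the Foxo3 KO and 86.1% in the WT library, and its ratio of 1.07 was close to 1. Sema4d thus stood 137.2 times above Sema3a in the Foxo3 KO library and 601.4 times above it in the WT library.

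Among the other 17 semaphorin genes, 5 were measured, with 4 higher and 1 lower in the Foxo3 KO library, and none differed by 2-fold on the log2 scale. Nothing is read from this count, since Sema3d is among the 4. Sema3c, a secreted ligand that uses both neuropilins, stood at 2.95 FPKM in the Foxo3 KO and 1.61 FPKM in the WT library, a plain ratio of 1.83 and the 39th highest log2 ratio. Sema3d, another secreted class 3 ligand, read 1.01 FPKM in the Foxo3 KO and 0.759 FPKM in the WT library. Sema3a and Sema3d reached 1 FPKM in the Foxo3 KO library alone, so that their being higher there was fixed by the filter. The summed level of the 7 class 3 genes was 5.96 FPKM in the Foxo3 KO and 2.97 FPKM in the WT library. With no minimum, 4 of the 7 were higher and 3 lower in the Foxo3 KO library. Nothing is read from the difference between the libraries in this sum, since it holds Sema3a, for which the set was chosen. Sema3a supplied 29.7% of that sum in the Foxo3 KO library and 12.8% in the WT library. On the depth estimate, Sema3c would correspond to some 555 fragments in the Foxo3 KO and 220 in the WT library. Sema3d would correspond to some 220 in the Foxo3 KO and 119 in the WT library. These rough figures assume the longest transcript of each gene and have no interval.

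Of the class 4 ligands outside the set, Sema4b was measured, at 4.36 FPKM in the Foxo3 KO and 3.83 FPKM in the WT library. Sema7a, a membrane-anchored semaphorin read by plexin-C1 and by integrins, was the second most abundant ligand, at 14.7 FPKM in the Foxo3 KO and 15.5 FPKM in the WT library. Sema6b stood at 5.29 FPKM in the Foxo3 KO and 5.07 FPKM in the WT library. Sema6d, the plexin-A1 ligand that promotes osteoclast formation in mice, stayed under 1 FPKM, at 0.616 FPKM in the Foxo3 KO and 0.939 FPKM in the WT library. Sema3e, a known but not the only ligand of plexin-D1, was at 0.0224 FPKM in the Foxo3 KO and 0.0312 FPKM in the WT library, about 5 fragments in each on the depth estimate.

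**Figure D3:**
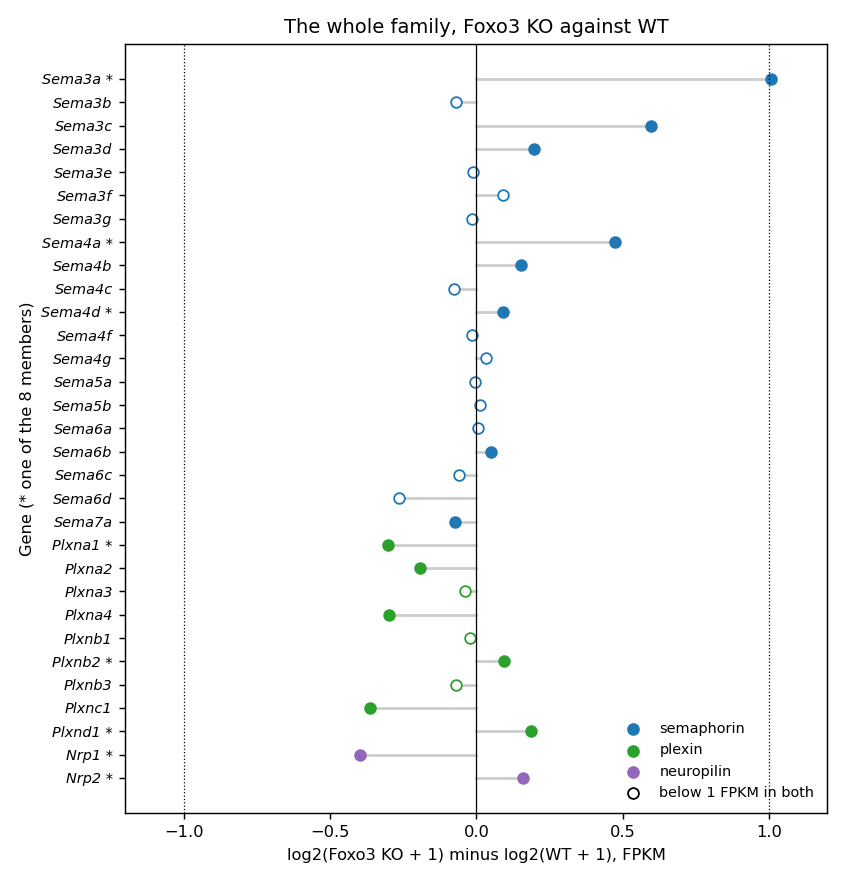
The log2 ratio, log2(Foxo3 KO + 1) minus log2(WT + 1), of all 31 semaphorin, plexin and neuropilin genes by role, with open circles for genes below 1 FPKM in both libraries, asterisks for the 8 members and dotted lines at 2-fold. Sema3a sits at 1.01 and Sema3c at 0.60, while the measured plexin-A genes and Plxnc1 lie left of 0, between -0.36 and -0.19.

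Among the receptors, Plxna1 encodes plexin-A1, which passes on both the restraint by Sema3A and the stimulus by Sema6D in osteoclast precursors (chromosome 6, 89316314 to 89362620). It stood at 37.9 FPKM in the Foxo3 KO and 46.9 FPKM in the WT library, a ratio of 0.808 and a log2 ratio of -0.30, the 476th lowest. Its exons overlap the antisense gene Gm26811, and whether strand was used in counting is not stated. The other measured plexin-A genes were also lower in the Foxo3 KO library, Plxna4 with 8.50 against 10.7 FPKM in WT and Plxna2 with 7.23 against 8.40 FPKM in WT. Summed, the 4 plexin-A genes came to 54.2 FPKM in the Foxo3 KO and 66.6 FPKM in the WT library.

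Plxnb2 encodes plexin-B2, a receptor for class 4 semaphorins (chromosome 15, 89155549 to 89180788), and was at 168.5 FPKM in the Foxo3 KO and 157.9 FPKM in the WT library. Plxnd1 encodes plexin-D1, best known as the receptor of Sema3E on endothelium (chromosome 6, 115954811 to 115995005), and was at 211.0 FPKM in the Foxo3 KO and 185.2 FPKM in the WT library. Both ratios were small, 1.07 for Plxnb2 and 1.14 for Plxnd1. Together the pair made up 85.8% of the summed plexin FPKM in the Foxo3 KO and 81.5% in the WT library. Plxnb1, the plexin-B1 gene through which osteoblasts read Sema4D, was barely detected, at 0.00863 FPKM in the Foxo3 KO and 0.0243 FPKM in the WT library. Of the other 6 plexin genes 3 were measured and all 3 were lower in the Foxo3 KO library, where 42.4% of all measured genes were lower. The third was Plxnc1, the receptor of Sema7A, at 7.79 FPKM in the Foxo3 KO and 10.3 FPKM in the WT library.

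The 2 neuropilins, co-receptors that bind class 3 semaphorins and forms of VEGF, stood on opposite sides. Nrp1, the Sema3A co-receptor (chromosome 8, 128358604 to 128503363), was at 25.7 FPKM in the Foxo3 KO and 34.2 FPKM in the WT library, a ratio of 0.752. Its log2 ratio of -0.40 was the 266th lowest of 10003, short of 2-fold. Nrp2 (chromosome 1, 62703285 to 62818695) had a ratio of 1.12. Nrp2 therefore stood 12.7 times above Nrp1 in the Foxo3 KO library and 8.57 times above it in the WT library, a comparison within each library that scaling does not touch. The microRNA gene Mir1903 overlaps an exon of Nrp1, and the files list a separate row under Nrp, a RefSeq synonym of Nrp1, at 0.146 FPKM in the Foxo3 KO and 0.194 FPKM in the WT library. What that row holds is not stated, and it was not added to Nrp1, whose values may thus be incomplete by that amount.

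Macrophage markers, some of which decline as RANKL acts, were set beside Nrp1 and Plxna1. Of 8 markers 7 were lower in the Foxo3 KO library, against 42.4% of all measured genes. The 8 had a median log2 ratio of -0.16 and summed to 2660 FPKM in the Foxo3 KO and 2761 FPKM in the WT library. Mrc1, the mannose receptor gene, had a ratio of 0.644 and Mertk, a receptor kinase for engulfment, one of 0.635, while Csf1r, the M-CSF receptor gene, stood at 0.996. The 9 osteoclast markers had a median log2 ratio of 0.09, with 6 higher in the Foxo3 KO library, against 57.6% of all measured genes. The part of these shifts in the values of Nrp1 and Plxna1 was not tested.

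**Figure D4:**
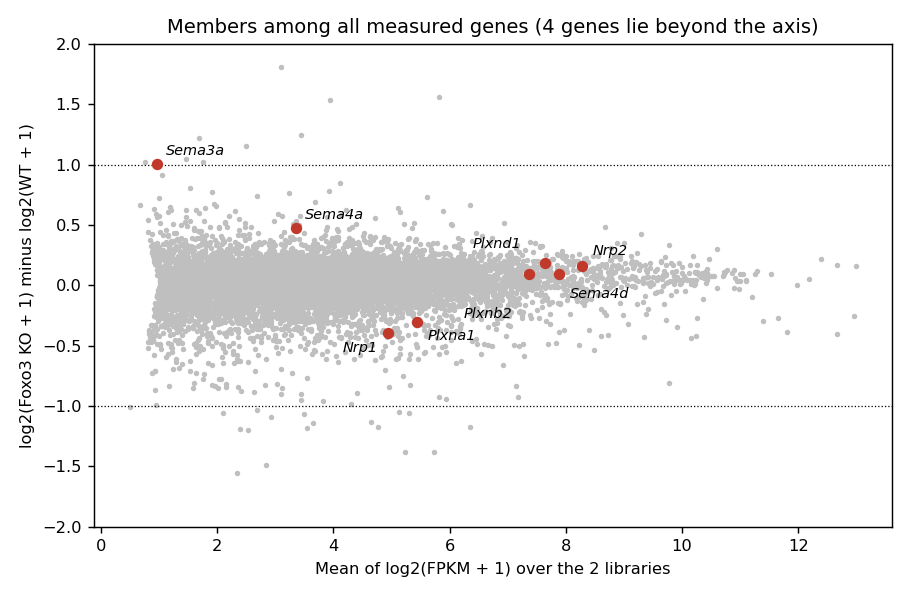
The log2 ratio of Foxo3 KO over WT against the mean log2(FPKM + 1) of both libraries for the measured genes (grey), with the 8 members in red and dotted lines at 2-fold. Sema3a lies at the upper line at the low end of the level axis, and the other 7 members lie between -0.40 and 0.47.

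Sequences upstream of these genes are shown because FoxO3 is a DNA-binding factor, for Sema3a as the member with the largest difference and for the neuropilins, which stood on opposite sides. RefSeq promoter windows (GRCm38.p6, the assembly of mm10), of 250 bases before and 50 bases after a transcript start, were at hand for 7 of the 8 members, 13 windows in all. The forkhead core TGTTTA, or TAAACA on the other strand, was in 1 of the 13 windows, against 13.4% of 32851 windows of all genes. The longer FoxO motif TGTTTAC, or GTAAACA, which contains the core, was in 0 of the 13, against 3.65% of all. A match is a string of letters and not a site, and its lack in these windows says nothing of FoxO3 elsewhere. The printed windows are those of Sema3a (chr5:13396534-13396833, plus strand), Nrp1 (chr8:128358823-128359122, plus strand), Nrp2 (chr1:62703067-62703366, plus strand) and the Sema4d start that holds the core (chr13:51756634-51756933, minus strand), each 5′ to 3′ on its gene's strand, with the forkhead core in capitals.
Sema3a: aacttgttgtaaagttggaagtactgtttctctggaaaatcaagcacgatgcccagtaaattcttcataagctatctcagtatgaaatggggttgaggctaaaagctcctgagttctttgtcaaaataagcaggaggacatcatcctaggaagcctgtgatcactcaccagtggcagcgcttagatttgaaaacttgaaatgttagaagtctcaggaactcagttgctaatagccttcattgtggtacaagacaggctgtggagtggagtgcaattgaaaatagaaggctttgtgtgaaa
Nrp1: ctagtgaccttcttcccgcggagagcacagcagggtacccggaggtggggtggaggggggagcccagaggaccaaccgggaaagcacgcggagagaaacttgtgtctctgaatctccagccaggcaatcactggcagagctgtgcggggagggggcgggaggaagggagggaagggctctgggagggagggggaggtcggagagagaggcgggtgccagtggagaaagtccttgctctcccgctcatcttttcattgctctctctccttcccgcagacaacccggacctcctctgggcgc
Nrp2: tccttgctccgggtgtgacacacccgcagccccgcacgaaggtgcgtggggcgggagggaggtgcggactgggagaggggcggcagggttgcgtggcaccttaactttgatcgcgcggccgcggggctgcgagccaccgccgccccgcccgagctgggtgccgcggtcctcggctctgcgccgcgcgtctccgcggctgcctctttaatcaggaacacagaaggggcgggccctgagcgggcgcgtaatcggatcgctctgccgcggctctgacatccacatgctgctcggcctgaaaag
Sema4d: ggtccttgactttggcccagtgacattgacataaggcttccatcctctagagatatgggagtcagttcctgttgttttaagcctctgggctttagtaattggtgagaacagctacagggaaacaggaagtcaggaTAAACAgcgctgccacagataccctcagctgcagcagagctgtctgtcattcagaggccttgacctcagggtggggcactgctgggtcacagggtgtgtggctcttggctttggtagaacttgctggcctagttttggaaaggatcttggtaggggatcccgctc

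The Sema3a window holds 2 CpG pairs and 41.3% G and C, the Nrp1 window 14 and 64.0%, and the Nrp2 window 37 and 70.7%, beside medians of 7 and 52.7% over all windows. The Sema3a start in the table lies inside the annotated span of the gene, whose first annotated start is farther upstream, so other Sema3a promoters are not shown. The forkhead core of Sema4d was found at 1 of 3 tabulated starts, and gene-level FPKM do not tell which start was used. All 3 of these starts also lie inside the annotated span of Sema4d, whose first annotated start is farther upstream and is not shown. The Nrp1 and Nrp2 starts lie inside their genes too, but close to the first annotated start.

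The partners of plexin-A1 and the neuropilins were followed through a list of 14 co-receptors and other ligands, of which 8 were measured. Of the 8, 6 were higher and 2 lower in the Foxo3 KO library, against 57.6% and 42.4% of all measured genes. At 2-fold 0 were called, against 0.12% higher and 0.2% lower of all measured genes, and the median log2 ratio was 0.10. Trem2, the receptor that pairs with plexin-A1, stood at 121.2 FPKM in the Foxo3 KO and 172.4 FPKM in the WT library, a ratio of 0.703 and the lowest log2 ratio of the list. Tyrobp, which encodes its adaptor DAP12, stood at 1988 FPKM in the Foxo3 KO and 1937 FPKM in the WT library. The ratio of Tyrobp, 1.03, was close to 1, and its log2 ratio of 0.04 lay beside a median of 0.03 for all measured genes. Cd72, which encodes a Sema4D receptor of immune cells, had the highest log2 ratio of the list, with 76.9 FPKM in the Foxo3 KO and 53.8 FPKM in the WT library. Vegfa, a growth factor that binds neuropilins, stood at 25.7 FPKM in the Foxo3 KO and 18.7 FPKM in the WT library, and Itgb1, the integrin chain read by Sema7A, at 150.4 FPKM in the Foxo3 KO and 157.4 FPKM in the WT library.

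Of 33 intracellular effectors 30 were measured, 17 higher and 13 lower in the Foxo3 KO library, against 57.6% and 42.4% of all measured genes. At 2-fold 0 were called, against 0.12% higher and 0.2% lower of all measured genes, and the median log2 ratio was 0.02. Mical2, an enzyme that oxidises actin, was farthest from 0 at 3.10 FPKM in the Foxo3 KO and 4.27 FPKM in the WT library, followed by the GTPase gene Rnd2 at a log2 ratio of -0.28 and the kinase gene Limk2 at 0.22. The most abundant, namely Cfl1 (cofilin), Rap1b, a GTPase on which plexins act, and Rac2, a GTPase of blood cells, had log2 ratios of -0.05, 0.03 and 0.22. Rhoa, the GTPase downstream of plexin-B receptors, had a ratio of 0.982 and Farp2, which links plexin-A1 to Rac in osteoclast precursors, one of 1.13. The effectors as a list were centred where all measured genes were centred.

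Of 8 proteases that process or shed semaphorins and their receptors 6 were measured, with a median log2 ratio of -0.03. In the Foxo3 KO library 2 were higher and 4 lower, against 57.6% and 42.4% of all measured genes. Furin, the convertase that cleaves class 3 semaphorins, stood at 39.6 FPKM in the Foxo3 KO and 49.4 FPKM in the WT library, the largest difference of the list. Mmp14, a membrane protease that sheds Sema4D in tumour cells, stood at 310.2 FPKM in the Foxo3 KO and 269.3 FPKM in the WT library. Adam10, Adam17 and Pcsk7 had log2 ratios of -0.01, -0.07 and 0.09.

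Other genes of the talk between osteoclasts and osteoblasts came to 26, of which 18 were measured, with a median log2 ratio of 0.03. In the Foxo3 KO library 10 were higher and 8 lower, against 57.6% and 42.4% of all measured genes. Of these genes 0 were past 2-fold on the log2 scale, against 0.12% higher and 0.2% lower of all measured genes. Efnb2, the ephrin ligand with which osteoclast precursors contact osteoblasts, had the highest log2 ratio of them, with 6.10 FPKM in the Foxo3 KO and 4.07 FPKM in the WT library. Igf1, a growth factor for osteoblasts, stood at 38.2 FPKM in the Foxo3 KO and 56.4 FPKM in the WT library, and Hgf, the ligand of Met, at 0.821 FPKM in the Foxo3 KO and 1.70 FPKM in the WT library, and so was measured through the WT library alone. Pdgfb, Tgfb1 and Spns2, the last an exporter of sphingosine 1-phosphate, were the most abundant, with log2 ratios of 0.07, 0.02 and -0.01. Tnfsf11, which encodes RANKL, was listed at 0 in both libraries, and Tnfrsf11a, its receptor RANK, stood at 56.9 FPKM in the Foxo3 KO and 55.0 FPKM in the WT library.

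**Figure D5:**
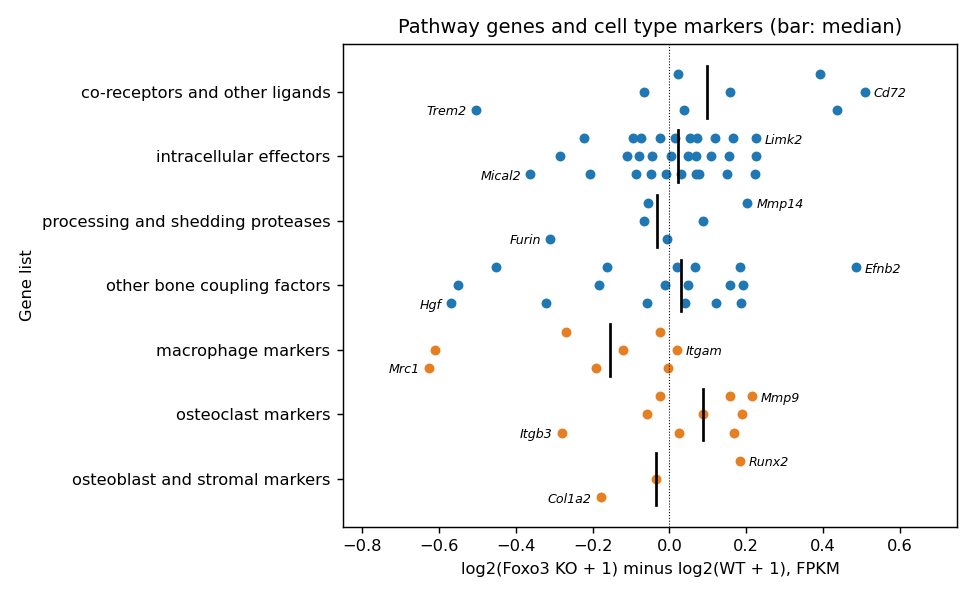
The log2 ratio of Foxo3 KO over WT for the measured genes of 4 lists around the semaphorin pathway (blue) and of 3 marker lists (orange), with a bar at each median and the genes at both ends named. On this scale, with 1 FPKM added, every gene shown lies within 2-fold, though the plain ratio of Hgf was 0.482. The medians run from -0.16 for macrophage markers to 0.10 for co-receptors and other ligands.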

How the data were processed

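The authors deposited 1 table of gene symbols and values for each of the 2 libraries. The deposited values were read as FPKM from the values themselves, since no header or label names the unit. TopHat, edgeR and mm10 appear without versions or roles, per the submitters' processing notes, and the quantifier is not given in the sources used here. An apparent constant of 0.000001 was subtracted from each value. A count test had no place, since FPKM are not counts and each group has 1 library, and no p-value is given.

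The members and gene lists were chosen with earlier results of these data known. Other genes were named by a fixed rule: from each list, the 3 genes farthest from 0 in log2 ratio and the 3 most abundant, with any further measured list gene allowed, every semaphorin or plexin gene, and the 5 genes nearest to Sema3a. Sema6d, Tnfsf11 and the markers were named for their roles. Adgre1 was matched through its RefSeq synonym, and Tek, Cldn5 and Ly6g were not analysed here. Coordinates and exon overlaps came from GENCODE M21 (mm10) and promoters from RefSeq (GRCm38.p6). The worth of 1 fragment was taken as the lowest peak of FPKM times transcript length. Only the 2-fold call and the trimmed-mean scaling were tested on simulated data, built from genes well above the level of Sema3a. That test does not speak for genes as low as Sema3a, and the other steps were not simulated. Python 3.11.15, numpy 2.4.6, pandas 2.3.3 and matplotlib 3.10.9 were used. Alternatives were other pseudocounts, scalings, minimums and thresholds.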

Additional observations from a re-analysis of the deposited data

How the results depend on the processing

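The log2 ratio of Sema3a was 1.96 with a pseudocount of 0.1, 1.68 with 0.25 and 0.33 with 5, and 0.99 and 0.98 after trimmed-mean scaling and centring on the median gene. The count of members at least 2-fold higher, 1 as reported, was 0 with a pseudocount of 5, under both alignments, with a minimum of 10 FPKM and at 4-fold, and 1 at 1.5-fold. The log2 ratio of Foxo3 was -4.00, -3.72 and -1.46 with pseudocounts of 0.1, 0.25 and 5. These follow from how the settings are built, since a pseudocount shrinks low values, both alignments lower the Foxo3 KO values slightly, and Sema3a never reached 10 FPKM. The median log2 ratio of the members ran from 0.09, with Sema3a left out or a minimum of 10 FPKM, to 0.16 as a mean, beside 0.13 as reported. Of 75 recomputed log2 ratios of 15 other measured family genes, 0 changed sign, which these settings could hardly bring about, 73 moved by less than the spread of 200 genes of like level, and 2, both of Sema3c, moved by more. The share of all measured genes above 0 was 50.4% with trimmed-mean scaling and 50% with median centring. No paired analysis was possible because there is a single library of each genotype, and none could be left out. Depth limits Sema3a and the genes below it most.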

Other observations

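Sema3a, Sema3c, Sema3d and Sema3e lie on chromosome 5 (mm10), between 12383385 and 17730268, and the genes listed there were looked at after the values were seen. That interval holds 7 listed genes, of which 4 were measured. Sema3d, Sema3a and Sema3c were higher in the Foxo3 KO library, with plain ratios of 1.34, 4.67 and 1.83 in their order along the chromosome. Hgf, between Sema3e and Sema3c, was lower there, with a ratio of 0.482. Cd36, a lipid scavenger receptor gene that begins at 17781690, next to Sema3c, stood at 31.9 FPKM in the Foxo3 KO and 84.7 FPKM in the WT library. Extended by 1 Mb on each side, the interval holds 10 listed genes, and the 5 measured ones are those named here. Sema3a and Sema3d reached 1 FPKM in the Foxo3 KO library alone and Hgf in the WT library alone, so the filter fixed their directions. Sema3a was also the gene for which the set was chosen. Nothing is therefore read from the directions in this interval, and no replicate shows how stable the differences are. Whether position on the chromosome bears on these values was not tested.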
